A study of Homo sapiens with 21 samples.

Results

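The snoRNA host genes described here are 10 noncoding genes whose spliced RNAs are known to be removed by nonsense-mediated decay (NMD): GAS5, SNHG1, SNHG5, SNHG6, SNHG8, SNHG12, SNHG15, SNHG16, ZFAS1 and EPB41L4A-AS1. They were taken as a list of symbols and matched to Ensembl gene IDs, and all 10 were found among the 37637 features of the deposited count table. Of these, 9 had enough counts to be among the 17468 genes tested, and SNHG15 did not.

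RNA was sequenced from HepG2 cells, a standard line grown from a human liver tumour. The cells received caffeine, the methylxanthine of coffee, at 0, 0.01, 0.1, 1, 10, 100 or 1000 µM, with 3 libraries per dose and 21 in all. Every group, the 0 µM cells included, was moved from serum-containing to serum-free DMEM and kept there for 6 h, and poly(A) RNA was selected, so all values are for cells without serum. The sample labels call the control untreated and 0 µM caffeine, and these labels were followed where the series' own design text gives the control as 0 µM of coumarin.

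Small nucleolar RNAs (snoRNAs) guide chemical modification of ribosomal and other RNAs, and most human ones are cut from introns of longer host transcripts. In a noncoding host the introns carry the product, and the spliced exons hold only short reading frames. Ribosomes that stop at such a frame upstream of an exon junction can trigger NMD, a decay pathway in which UPF1 is phosphorylated by the kinase SMG1, so these RNAs are known to accumulate when translation or NMD is blocked. Many of them also begin with a run of pyrimidines like that of the 5′ TOP mRNAs, which encode ribosomal proteins and translation factors. A level in bulk RNA does not separate synthesis from decay, or fewer expressing cells from less RNA per cell.

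Library totals ran from 28043623 to 40827833 counts, with a median of 32497612. Mitochondrial genes took 4.95% to 14.2% of a library. All 10 liver markers were detected in every library, with a summed level between 24566 and 29851 CPM (counts per 1000000 of a library total scaled by edgeR's TMM factors). COL1A2 was at 0 in every library, the fibroblast list reached at most 0.190 CPM in sum, and PTPRC, the defining marker of blood cells, had at most 1 count. LYZ, also on the blood list, had 27878 to 49382 counts per library in these cells. The design text calls the 3 libraries of a dose biological replicates without saying whether they came from separate cultures, so the p-values below measure the spread between these libraries, which may be technical.

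The genes lie on separate chromosomes apart from GAS5 and SNHG12. In GENCODE release 29 of GRCh38, the build in the submitters' processing notes, GAS5 is at chr1:173863900-173868882 on the minus strand, SNHG12 at chr1:28578538-28583132 (minus), SNHG8 at chr4:118278709-118279823 (plus) and EPB41L4A-AS1 at chr5:112160526-112164276 (plus). SNHG5 is at chr6:85660950-85678748 (minus), SNHG15 at chr7:44983023-44986961 (minus), SNHG6 at chr8:66921684-66926398 (minus) and SNHG1 at chr11:62851988-62855914 (minus). SNHG16 is at chr17:76557766-76565348 (plus) and ZFAS1 at chr20:49278178-49295738 (plus). Among the snoRNA genes that this release places inside them are SNORD50B in SNHG5, SNORA24 in SNHG8, SNORD12, SNORD12B and SNORD12C in ZFAS1, SNORD1A, SNORD1B and SNORD1C in SNHG16, and SNORA13 in EPB41L4A-AS1. No snoRNA inside a host gene was analysed here, so every value below is that of a host transcript.

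Several hosts share exonic sequence with a gene on the opposite strand, and whether the counting used strand is not given in the sources used here. EPB41L4A covers 49.6% of the exonic bases of EPB41L4A-AS1, MCMDC2 covers 29.3% of those of SNHG6, and AC015802.6 covers 30.6% of those of SNHG16. ZNFX1 covers 11.1% of those of ZFAS1. The values of these 4 hosts are therefore uncertain, while the overlap was 1.16% in GAS5 (with GAS5-AS1) and 0.188% in SNHG12 (with TRNAU1AP). SNHG1, SNHG5, SNHG8 and SNHG15 had no exonic overlap in that release.

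The start sites of the 5 hosts that passed a test below are shown because a pyrimidine run at the first base is the mark of a TOP transcript. Each line gives 20 bases before the start and 40 from the start on, 5′ to 3′ on the gene's strand, from the RefSeq promoter table of GRCh38.p14, and capitals mark a C followed by at least 4 pyrimidines (C or T). The regions are chr6:85678694-85678753 (minus) for SNHG5, chr1:28581834-28581893 (minus) for SNHG12, chr20:49278622-49278681 (plus) for ZFAS1, chr4:118278742-118278801 (plus) for SNHG8 and chr17:76557744-76557803 (plus) for SNHG16.
SNHG5: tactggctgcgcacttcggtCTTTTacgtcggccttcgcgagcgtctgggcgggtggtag
SNHG12: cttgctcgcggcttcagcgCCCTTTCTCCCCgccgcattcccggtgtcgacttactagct
ZFAS1: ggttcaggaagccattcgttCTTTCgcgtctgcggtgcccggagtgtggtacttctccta
SNHG8: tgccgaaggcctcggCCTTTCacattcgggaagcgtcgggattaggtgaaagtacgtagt
SNHG16: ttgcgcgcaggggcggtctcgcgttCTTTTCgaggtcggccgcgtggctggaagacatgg

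In SNHG5, SNHG12 and ZFAS1 the annotated start base was itself such a C (in SNHG12 the run already began 1 base before it), in SNHG8 the run spanned the start, and in SNHG16 it began 6 bases into the transcript, counting the start as 1. Sequences were found for 8 of the 10 hosts. The start base was a C followed by at least 4 pyrimidines in 3 of these 8, against 4.07% of the 35116 promoters in the table. A run began within 20 bases on either side in 6 of 8, against 49.3%. GAS5 and EPB41L4A-AS1, whose starts are not shown, had no such run. The E-box CACGTG, searched over 300 bases on the gene's strand (it reads the same on both strands), was in 0 of 8 hosts and in 7.26% of promoters. The cAMP-response element TGACGTCA, also a palindrome, was in 0 of 8 and in 1.85%. A match or its absence describes these letters only.

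SNHG15 was close to undetected in this table, and the cause was not tested. It had 0 to 8 counts per library, with a median of 1, and 3 counts correspond to 0.0735 to 0.107 CPM at these depths. Its highest library was a 0 µM one, at 0.255 CPM, and no difference between doses was detectable at this level. The other 9 hosts had at least 491 counts in every library.

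At 10 µM 4 of the 9 tested host genes were lower than in untreated cells. SNHG5, SNHG16, ZFAS1 and SNHG8 passed the test, with levels of 0.522, 0.561, 0.638 and 0.588 of the 0 µM level in the fit. The count of 4 of 9 stands beside 22.0% of all genes tested that passed in either direction, 10.7% lower and 11.3% higher. The median log2 fold change was -0.30 over the 9 hosts and -0.01 over all genes tested. The plot of levels by dose shows the 3 libraries behind each group.

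**Figure D1:**
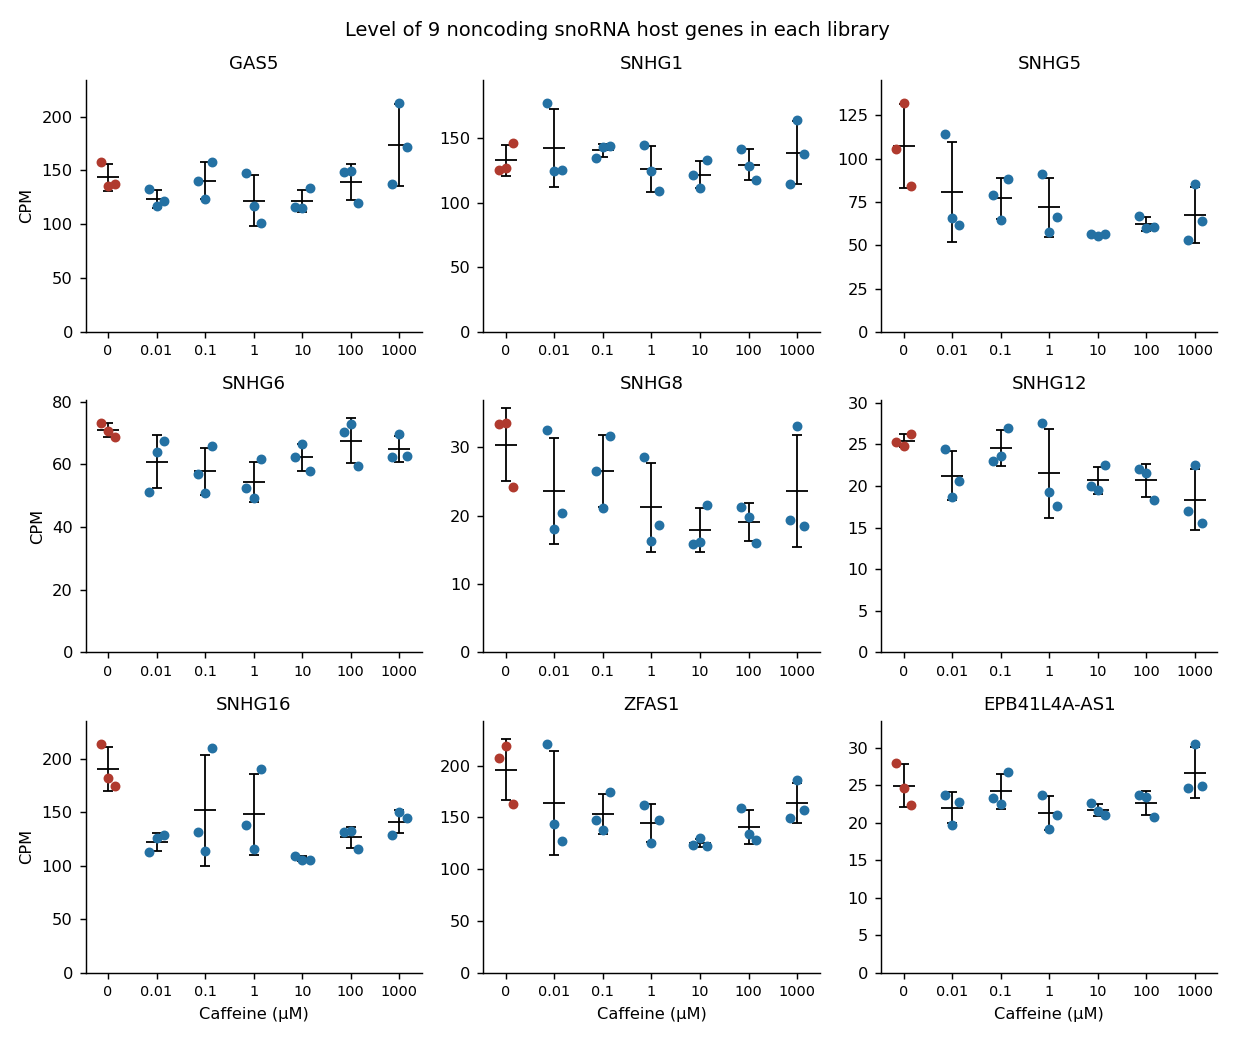
CPM of the 9 tested host genes in each library (vertical axes, from 0) by caffeine dose in µM (horizontal axes). Points are libraries, red at 0 µM and blue at the other doses, and bars are the mean ± SD of 3; SNHG5, SNHG8, SNHG16 and ZFAS1 sit lower at 10 µM than at 0 µM without overlap.

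SNHG5, the host of a box C/D snoRNA of the U50 family, had 105, 132 and 84.1 CPM in the 0 µM libraries and 56.3, 55.4 and 56.3 CPM at 10 µM. The untreated libraries were spread widely, the 10 µM libraries were almost equal, and the groups did not overlap. The log2 fold change was -0.94 ± 0.23 (SE) with an adjusted p of 0.00921 in the quasi-likelihood test of edgeR, adjusted by Benjamini-Hochberg over all genes tested, which is the test used throughout.

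SNHG16, the host of the SNORD1 snoRNAs, had 214, 182 and 175 CPM at 0 µM and 109, 106 and 105 CPM at 10 µM. All 3 libraries at 10 µM were far below the lowest untreated one. The change was -0.83 ± 0.19 (edgeR adjusted p = 0.00630), and SNHG16 was the only host whose call at 10 µM held with each of the 6 libraries left out in turn, with adjusted p from 0.00997 to 0.0407. Its exons overlap a gene on the other strand, as given above.

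ZFAS1, the host of the SNORD12 snoRNAs, had 207, 219 and 163 CPM at 0 µM and 123, 129.7 and 123 CPM at 10 µM. The groups did not overlap, and the change was -0.65 ± 0.17 (edgeR adjusted p = 0.0141). Without any 1 of 3 libraries (0 µM replicates 1 and 2 and 10 µM replicate 1) its adjusted p was 0.0574 to 0.0615. SNHG8, which hosts the box H/ACA snoRNA SNORA24, had 33.4, 33.5 and 24.2 CPM at 0 µM and 15.8, 16.2 and 21.6 CPM at 10 µM. The lowest untreated library and the highest treated one lay close together. The change was -0.77 ± 0.26 (edgeR adjusted p = 0.0453), and it missed the threshold without any 1 of 4 libraries (0 µM or 10 µM replicates 1 and 2), at 0.130 to 0.159. SNHG5 itself moved to 0.0503 without 0 µM replicate 2.

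The other 5 hosts did not pass at 10 µM, with log2 fold changes from -0.30 (SNHG12) to -0.12 (SNHG1). Counting overlap alone, 7 of 9 hosts had all 3 libraries at 10 µM below all 3 at 0 µM, against 23.4% of genes tested, and the exceptions were SNHG1 and EPB41L4A-AS1. GAS5, a growth arrest-specific transcript that hosts many box C/D snoRNAs, was among the 7, with 158, 136 and 137 CPM at 0 µM and 116, 115 and 133 CPM at 10 µM. SNHG6 was another, with 73.2, 70.6 and 68.8 CPM against 62.4, 66.5 and 58.0 CPM.

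At 100 µM the pattern was similar in direction and weaker in the tests. SNHG5 alone of the 9 passed, against 6.02% of all genes in either direction, 3.27% lower and 2.74% higher. It had 66.9, 59.9 and 60.5 CPM, a change of -0.78 ± 0.23 from 0 µM (edgeR adjusted p = 0.0489). This call was lost in 5 of the 6 fits that left 1 library out, at edgeR adjusted p of 0.0862 to 0.214. It held only without 0 µM replicate 3. In the fits that lost it the change was -0.60 to -0.83. Over all genes 47, 26 and 1133 passed without 0 µM replicates 1, 2 and 3, against 1051 with all libraries. SNHG16 (-0.59, edgeR adjusted p = 0.0626), ZFAS1 (-0.48, 0.0924) and SNHG8 (-0.67, 0.120) did not pass. The libraries of 5 hosts (these 4 and SNHG12) lay wholly below the untreated ones, against 22.0% of genes.

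At 1000 µM SNHG5 and SNHG12 passed, both lower. This 2 of 9 stands beside 41.2% of all genes in either direction and 20.6% in each, a share near the 20.6% that passed as lower. SNHG5 had 52.9, 85.2 and 64.3 CPM, and its highest library overlapped the lowest untreated one, with a change of -0.67 ± 0.23 (edgeR adjusted p = 0.0243). SNHG12, a host of box H/ACA snoRNAs including SNORA44 and SNORA61, had 25.3, 24.8 and 26.3 CPM at 0 µM and 17.0, 22.5 and 15.6 CPM at 1000 µM. Its groups did not overlap, and the change was -0.47 ± 0.16 (edgeR adjusted p = 0.0239). Only SNHG12 and SNHG16 had all 3 libraries at 1000 µM below all 3 at 0 µM, 2 of 9 hosts against 27.3% of genes. Each call was lost without any 1 of 4 libraries, at adjusted p of 0.0516 to 0.131 for SNHG5 (0 µM replicates 1 and 2, 1000 µM replicates 1 and 3) and of 0.0545 to 0.124 for SNHG12 (0 µM replicates 1 and 3, 1000 µM replicates 1 and 3).

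GAS5, SNHG1 and EPB41L4A-AS1 had positive changes at 1000 µM that did not pass. GAS5 had 137, 213 and 171 CPM, with replicates 2 and 3 above every untreated library, a change of 0.28 ± 0.15 (edgeR adjusted p = 0.158). Without 1000 µM replicate 1 it was 0.45 and passed, at 0.0277. EPB41L4A-AS1, a host of SNORA13 that overlaps EPB41L4A, had 28.0, 24.6 and 22.3 CPM at 0 µM and 24.6, 30.6 and 24.9 CPM at 1000 µM, a change of 0.10 ± 0.11. SNHG1, the host of the snoRNAs around SNORD22, had 125, 127 and 146 CPM at 0 µM and 115, 164 and 138 CPM at 1000 µM. With the mitochondrial share of each library as a covariate GAS5 was 0.35 higher and passed, at an edgeR adjusted p of 0.0367. No host passed as higher against 0 µM at any dose in the fit of dose groups alone.

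**Figure D2:**
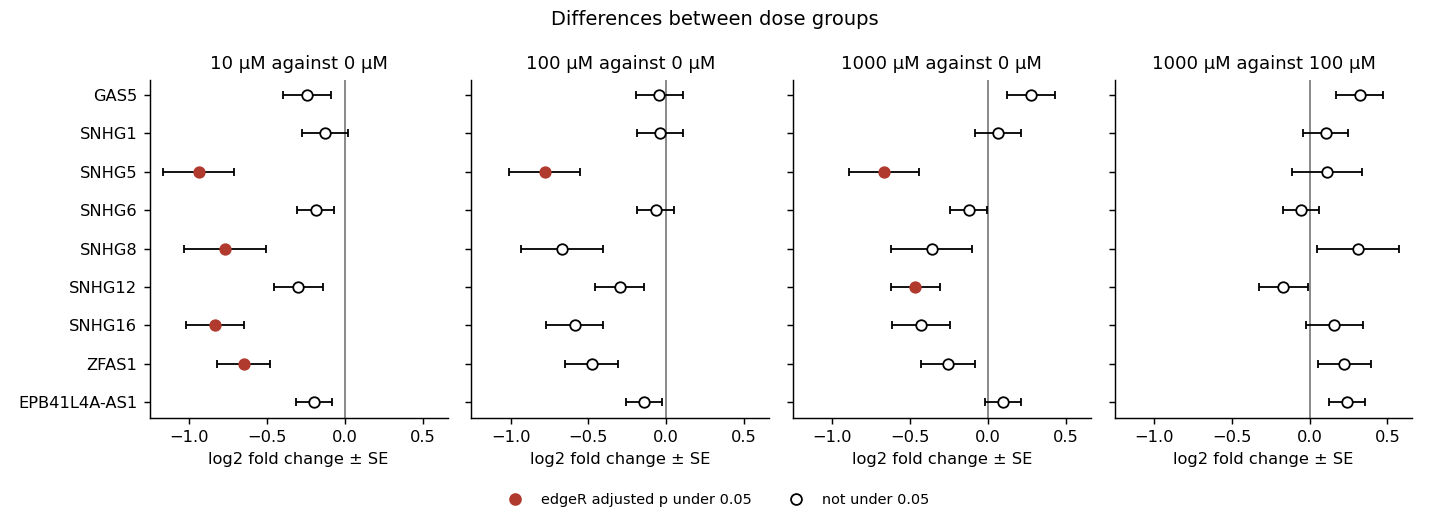
Log2 fold change ± SE (horizontal axes) of the 9 tested host genes (vertical axis) in 4 comparisons between dose groups. Filled red points passed at an adjusted p under 0.05, and the 4 calls at 10 µM, 1 at 100 µM and 2 at 1000 µM are all to the left of 0.

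At the 3 lowest doses no host passed. At 0.01 µM 4.95% of all genes did (2.87% higher and 2.08% lower). An unadjusted p below 0.05 in edgeR was reached by 4567 of the 17468 genes and by 1 host, SNHG16. It had 113, 126 and 128 CPM, all below the untreated libraries, with a change of -0.64 ± 0.18 and an edgeR adjusted p of 0.0519. In DESeq2 it passed, beside 2119 genes. At 0.1 µM and 1 µM 0.0% of genes passed in edgeR. Below an unadjusted p of 0.05 in edgeR were 2 and 3 hosts, beside 2651 and 3980 of the 17468 genes. DESeq2 called 0 and 1 hosts (SNHG6 at 1 µM), beside 519 and 1379 genes. All 3 libraries were below the untreated ones in 4 of 9 hosts at 0.01 µM (16.3% of genes), in 1 at 0.1 µM (12.4%) and in 2 at 1 µM (12.5%). At 0.1 µM SNHG16 had 131, 113 and 211 CPM, and replicate 3 was as high as the untreated cells. The 3 comparisons share their controls with each other and with the higher doses.

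Across the 7 groups, SNHG16 (edgeR adjusted p = 0.0321) and SNHG5 (0.0488) passed the test of any difference, beside 28.1% of all genes. On the dose step, a number from 0 to 6 for the 7 doses in order, SNHG5 fell by 0.11 ± 0.03 log2 per step (adjusted p = 0.00765) and SNHG12 fell by 0.06 ± 0.02 (adjusted p = 0.0279), beside 29.0% of all genes with a slope in either direction. The calls were lost when the 0 µM libraries were left out: 0 of 9 hosts passed in either test among the 18 treated libraries. Of the 17308 genes tested there, 2211 passed the test of any difference and 1984 passed with a slope. In each test 1 host, GAS5, was below an unadjusted p of 0.05 in edgeR (adjusted p = 0.141 and 0.126), beside 4705 and 4798 genes. The slope of SNHG12 over the treated libraries was -0.05 log2 per step (adjusted p = 0.226), little changed, and that of SNHG5 was -0.07 (0.205).

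The order of the group means put 0 µM highest in 6 of the 9 hosts (SNHG5, SNHG6, SNHG8, SNHG12, SNHG16 and ZFAS1). In SNHG5 the means were 107 ± 24.2 CPM (SD, n = 3) at 0 µM, then 80.6, 77.2, 71.9, 67.4, 62.4 and 56.0 CPM at 0.01, 0.1, 1, 1000, 100 and 10 µM. In this order the ranges of neighbouring doses overlapped except between 100 and 10 µM. In SNHG16 190.4 ± 21.0 CPM at 0 µM was followed by 152, 148, 141, 127, 122 and 107 CPM at 0.1, 1, 1000, 100, 0.01 and 10 µM, and only the last neighbours did not overlap. SNHG12 was highest untreated (25.4 ± 0.782 CPM) and lowest at 1000 µM (18.4 ± 3.64 CPM). SNHG8 was highest untreated (30.4 ± 5.37 CPM) and lowest at 10 µM (17.9 ± 3.24 CPM), and in both every pair of neighbouring doses overlapped. GAS5 was highest at 1000 µM, at 174 ± 38.0 CPM, and lowest at 10 µM, at 121 ± 10.3 CPM. SNHG1 stayed between 122 ± 10.7 CPM (10 µM) and 142 ± 30.4 CPM (0.01 µM), and SNHG6 between 54.5 ± 6.39 CPM (1 µM) and 70.9 ± 2.22 CPM (0 µM).

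Setting the higher doses against other doses in place of the untreated cells changed the calls. Against 0.01, 0.1 and 1 µM, 0 of 9 hosts passed at 10 µM (0.0% of genes each). Below an unadjusted p of 0.05 in edgeR were 2, 2 and 1 hosts, beside 1098, 2429 and 468 of the 17468 genes. At 100 µM against 0.01, 0.1, 1 and 10 µM, 0 of 9 passed (0.132%, 0.258%, 0.143% and 0.0515% of genes). Here 0, 0, 1 and 0 hosts were below an unadjusted p of 0.05 in edgeR, beside 1117, 2343, 1042 and 1281 genes. GAS5 was the only host that passed at 1000 µM, as higher: by 0.49 ± 0.15 against 0.01 µM (edgeR adjusted p = 0.0315, beside 18.5% of genes), by 0.51 ± 0.15 against 1 µM (0.0227, 22.3%) and by 0.52 ± 0.15 against 10 µM (0.0250, 18.4%). Against 0.1 µM GAS5 was 0.31 ± 0.15 higher and did not pass (0.155, beside 24.3%). These calls were lost when single libraries were left out. Without the second 1000 µM library the 3 changes were 0.33, 0.35 and 0.36, with edgeR adjusted p of 0.174, 0.136 and 0.142. Without the third the adjusted p were 0.0763, 0.0592 and 0.0643. Each was also lost without either of 2 reference libraries, at 0.0984 and 0.0860 (0.01 µM replicates 2 and 3), 0.0687 and 0.115 (1 µM replicates 2 and 3) and 0.0915 and 0.0961 (10 µM replicates 1 and 2).

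The 2 highest doses were also set against each other. None of the 9 hosts passed at 1000 µM against 100 µM, beside 14.7% of all genes (8.15% higher and 6.55% lower). Of the hosts 0 were below an unadjusted p of 0.05 in edgeR, beside 5157 of the 17468 genes. DESeq2 called 0 hosts, beside 3156 genes. GAS5 had 148, 149 and 119.8 CPM at 100 µM, so its change was 0.32 ± 0.15 (edgeR adjusted p = 0.170). It was 0.49 and passed (0.0375) without 1000 µM replicate 1. EPB41L4A-AS1 had 23.7, 23.4 and 20.7 CPM at 100 µM, wholly below its 1000 µM libraries (1 of 9 hosts, against 18.5% of genes), with a change of 0.24 ± 0.11 (adjusted p = 0.173).

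The hosts also moved together between libraries of 1 dose. The second 1000 µM library, the deepest with 40827833 counts, was the highest of its 3 in 9 of 9 hosts, and the third 0.1 µM library likewise. The third 100 µM library was the lowest of its 3 in 8 of 9. Over the 36 pairs of hosts and 21 libraries, Pearson's r of log2 CPM ran from -0.20 to 0.92 with a median of 0.53, and it had a median of 0.60 after each dose's mean was subtracted. SNHG5 and ZFAS1 were the most alike (0.92), followed by SNHG5 and SNHG8 (0.89), ZFAS1 and SNHG8 (0.86), and GAS5 and EPB41L4A-AS1 (0.85). SNHG6 followed the other hosts least, with r of 0.26 to their mean. All these points share library and depth, and the mean of the 9 hosts had an r of 0.04 with the library total and of -0.37 with the mitochondrial share. After the dose means were subtracted these were 0.38 and -0.22.

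Transcript length moved with the same groups. The 15676 other tested genes with a length in GENCODE release 29 were divided into 4 equal bins. Length was the median over those transcripts of a gene that carry the release's basic tag. A library's length index is the mean centred log2 CPM of the shortest bin (under 1433 bases) minus that of the longest (over 3595.5 bases). The index was 0.41, 0.39 and 0.24 in the untreated libraries and ran from -0.37 to 0.25 in the 18 treated ones, of which 1, the third 0.1 µM library, was above the lowest untreated one. Its mean was 0.35 untreated, and the means with 10, 100 and 1000 µM were -0.12, 0.01 and -0.25. Of the 9 hosts, 7 have a median transcript length under 1433 bases, and SNHG16 (1947 bases) and EPB41L4A-AS1 (2969 bases) are longer.

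**Figure D3:**
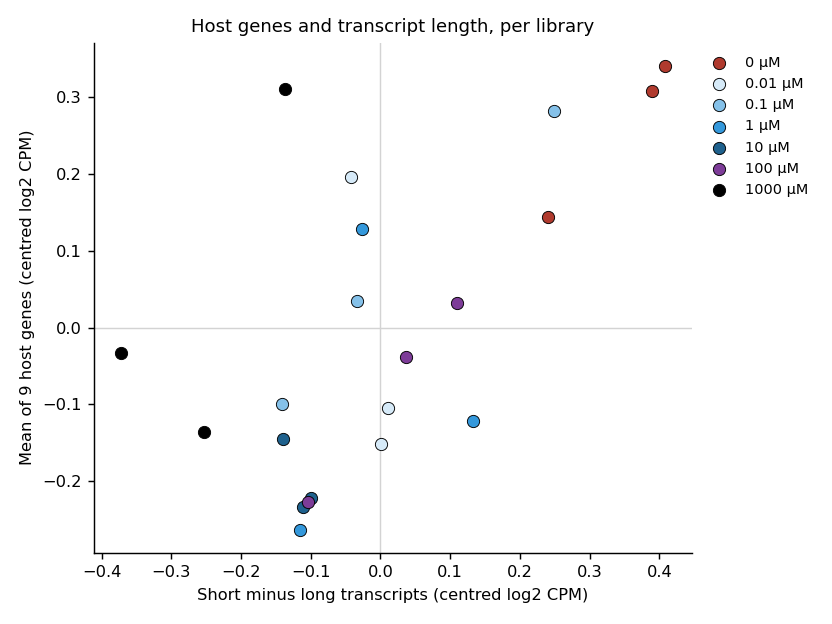
Mean centred log2 CPM of the 9 tested host genes (vertical axis) against the length index of the library, shortest minus longest bin of all other genes (horizontal axis), for 21 libraries coloured by dose. The 3 untreated libraries are at the right, at 0.24 to 0.41, and the 1000 µM libraries at the left, between -0.37 and -0.14.

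The mean of the 9 hosts had an r of 0.61 with this index over the 21 libraries, and of 0.61 after the dose means were subtracted. In the shortest bin the median log2 fold change against 0 µM was -0.27 at 10 µM, -0.20 at 100 µM and -0.38 at 1000 µM, and the 7 short hosts had medians of -0.30, -0.30 and -0.26. In the longest bin the medians were 0.22, 0.14 and 0.28. At 1000 µM against 100 µM the signs differed, with a median of -0.14 in the shortest bin and 0.11 over the 7 short hosts. At 10 µM 22.8% of the genes in the shortest bin passed as lower, and 2.12% of those in the longest.

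With the index as a covariate in the fit, 0 of 9 hosts passed against 0 µM at any dose, and their median change became -0.04 at 10 µM and 0.48 at 1000 µM. At 1000 µM SNHG6 (0.48), SNHG8 (0.55), SNHG16 (0.67) and ZFAS1 (0.30) turned from negative to positive values, as did GAS5 (0.05), SNHG6 (0.28), SNHG16 and EPB41L4A-AS1 (0.18) at 10 µM, none of them passing. At 10 µM SNHG5 was then -0.48 ± 0.37, ZFAS1 -0.21 ± 0.26, SNHG8 -0.04 ± 0.40 and SNHG16 0.01 ± 0.17. With the index, 0, 1 and 4 hosts were below an unadjusted p of 0.05 in edgeR at 10, 100 and 1000 µM. Beside these stood 804, 1200 and 2130 of the 17468 genes. The standard errors of most hosts grew, and over all genes the 3839 calls at 10 µM became 0 and the 7204 at 1000 µM became 313. Because the untreated libraries hold 3 of the 4 highest values of the index, the dose and the index cannot be told apart in the comparisons with 0 µM. At 1000 µM against 100 µM, SNHG16 (0.66 ± 0.13, edgeR adjusted p = 0.00589) and EPB41L4A-AS1 (0.45 ± 0.12, 0.0321) passed as higher with the covariate, and GAS5 was 0.49 ± 0.19 (0.168). In that fit 805 of the 17468 genes passed, 508 of them as higher. The index of the 1000 µM libraries (-0.37 to -0.14) did not overlap that of the 100 µM ones (-0.10 to 0.11), and its slope comes from all 21 libraries, so dose and index cannot be told apart here either. This covariate was chosen after the data were seen.

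**Figure D4:**
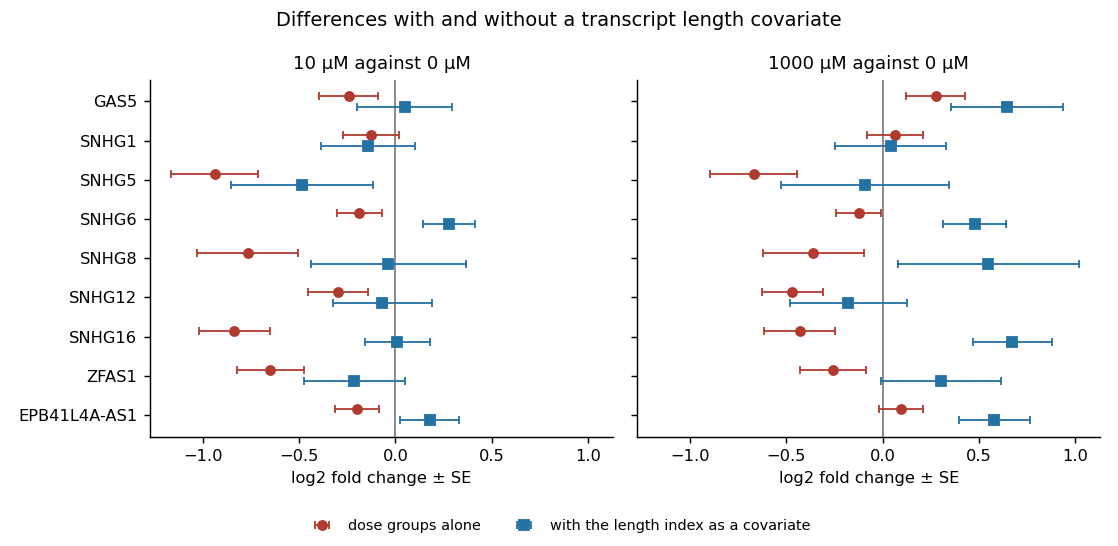
Log2 fold change ± SE (horizontal axes) of the 9 tested host genes (vertical axis) at 10 µM and at 1000 µM against 0 µM, from the fit of dose groups alone (red circles) and with the length index as a covariate (blue squares). At 10 µM SNHG16 moves from -0.83 to 0.01 and SNHG5 from -0.94 to -0.48.

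Of other noncoding snoRNA hosts, 14 were tested. At 10 µM 8 passed as lower, beside 10.7% of all genes, and 1, SNHG14, as higher (0.49 ± 0.16), with a list median of -0.59. SNHG4 fell by 1.12 ± 0.23 and SNHG29 fell by 0.80 ± 0.18 (edgeR adjusted p = 0.00486 and 0.00620). At 1000 µM 5 passed as lower and 3 as higher, beside 20.6% of all genes in each direction, with a median of -0.40: SNHG7 (0.58 ± 0.19), SNHG20 (0.32 ± 0.12) and SNHG11 (0.27 ± 0.11) were higher, and SNHG19 (-1.33 ± 0.26), SNHG9 (-1.47 ± 0.32) and DANCR (-0.37 ± 0.10) were among the lower. SNHG7 went both ways: its mean of 44.1 ± 6.69 CPM untreated stood against 26.9 ± 2.68 CPM with 10 µM and 65.9 ± 13.4 CPM with 1000 µM (SD, n = 3 each), passing as lower at 10 µM and as higher at 1000 µM, and higher at 1000 µM than at 100 µM (0.87 ± 0.19, edgeR adjusted p = 0.00527).

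Protein-coding snoRNA hosts, mainly ribosomal protein genes, were lower wherever they passed against 0 µM at these doses. Of 33 tested, 17 were lower at 10 µM and 16 at 1000 µM, none passed as higher, and the medians were -0.40 and -0.41. The shares of all genes that passed as lower were 10.7% and 20.6%. At 1000 µM RPS3 and RPS20, of the small ribosomal subunit, fell by 0.90 ± 0.15 and by 0.77 ± 0.15, and NOP56, a core protein of box C/D snoRNPs and itself a host, fell by 0.42 ± 0.09. Of 14 TOP mRNAs that encode no ribosomal protein, 2 were lower at 10 µM, near the 10.7% of all genes. At 1000 µM, where 41.2% of all genes passed in either direction, 3 were lower (the initiation factor EIF3F, -0.66; the elongation factor EEF1D, -0.61; HNRNPA1, -0.30) and EIF4B was higher (0.37).

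Genes of snoRNPs and of NMD passed in both directions at 1000 µM. Of all genes 41.2% passed there, 20.6% as higher and 20.6% as lower. Among 19 snoRNP proteins and assembly factors at 1000 µM, 8 were lower, including NOP10 (-0.90 ± 0.16) and NHP2 (-0.78 ± 0.17) of the box H/ACA core, and 2 were higher, the assembly factors RPAP3 (0.54) and ZNHIT6 (0.31). Among 21 NMD factors 6 were higher and 3 lower, 9 in all, which is near the share of all genes. SMG1, the kinase of UPF1, rose by 1.27 ± 0.20, the core factor UPF2 rose by 0.80 ± 0.12 and CASC3 of the exon junction complex rose by 0.56 ± 0.12, whereas MAGOH (-0.90), MAGOHB (-0.71) and EIF4A3 (-0.56), of the same complex, were lower.

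Of 15 tested coding mRNAs known as NMD substrates, 5 were higher and 4 lower at 1000 µM, beside 20.6% of all genes in each direction. The cystine transporter SLC7A11 (1.66 ± 0.22), the stress transcription factor ATF4 (0.68 ± 0.13) and the cysteinyl-tRNA synthetase CARS1 (0.36 ± 0.09) rose, while the cell cycle inhibitor CDKN1A (-1.27 ± 0.08), DDIT3 (-0.59 ± 0.13) and GADD45A (-0.39 ± 0.12) fell. At 10 µM 1 of the 15 was higher and 6 were lower, and ATF4 was among the lower (-0.39 ± 0.13, edgeR adjusted p = 0.0397). With the length index as a covariate 0 genes of the noncoding hosts, coding hosts, TOP mRNAs, snoRNP proteins and NMD factors passed at either dose, and the medians of both host lists at 1000 µM turned to 0.09 and 0.10. Among the substrates ATF4 (1.27, edgeR adjusted p = 0.00174), CARS1 (0.66, 0.0264) and CDKN1A (-1.01, 8.31e-04) still passed at 1000 µM with it. Of 6 tested genes next to a host, 2 passed at 1000 µM: ZBTB37, beside GAS5, was higher by 0.52 ± 0.13 and ZNFX1, beside ZFAS1, by 0.28 ± 0.10.

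**Figure D5:**
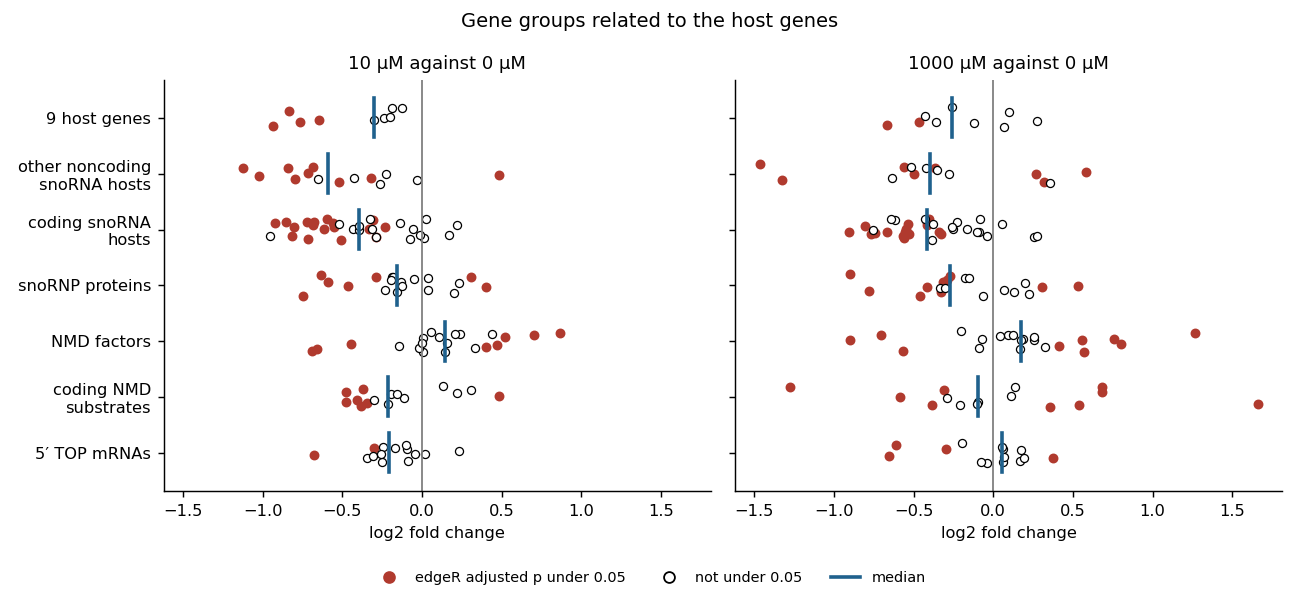
Log2 fold change (horizontal axes) at 10 µM and at 1000 µM against 0 µM of the 9 tested host genes and of 6 lists of related genes (vertical axis). Points are genes, red where the adjusted p was under 0.05, and blue bars are medians, from the fit without the length index; the host lists have medians between -0.59 and -0.26, and NMD factors spread to both sides of 0.

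Among 9382 genes with a mean of at least 10 CPM, those whose log2 CPM most resembled the mean of the 9 hosts over the 21 libraries were LAMTOR5, a subunit of the lysosomal Ragulator complex (Pearson's r of 0.97), COX7A2L, a factor of respiratory supercomplexes (0.96), MYL12B, a myosin regulatory light chain (0.95), MRPL13 of the mitochondrial ribosome (0.95) and SMIM20, a cytochrome c oxidase assembly factor (0.94). LAMTOR5 had 66.5 ± 7.56 CPM at 0 µM and 43.5 ± 5.37 CPM at 10 µM.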

How the data were processed

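RNA-seq libraries of HepG2 cells (7 caffeine doses, 3 libraries each) were used from 1 gene count table, deposited by the authors as raw whole-number counts. Per the submitters' processing notes, HISAT2, DESeq2 and GRCh38 were used. The counting program, annotation and strand setting are not given in the sources used here. A further 21 per-sample columns were not used. IDs were matched to symbols without their version, and 24852 of 32937 Ensembl IDs had one.

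Counts were fitted with edgeR 4.0.16 in R 4.3.3: genes kept by filterByExpr at a minimum count of 10, TMM scaling, 1 model of the 7 groups (14 residual degrees of freedom), quasi-likelihood tests, Benjamini-Hochberg adjustment over 17468 genes and a threshold of 0.05. Fold changes are log2 with SE, and CPM uses TMM-scaled totals. The fits were tested on simulated counts. Alternatives were other scalings, filters, references, covariates, the replicate number as a block, single libraries left out and DESeq2 1.42.0.

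The 10 host genes and all lists were chosen with earlier results of these data known. All hosts are named, with up to 3 higher and 3 lower genes of the smallest p per list at 1000 µM and the 5 genes most like the hosts' mean (prior count 2). SNHG4, SNHG29, SNHG14 and, at 10 µM, ATF4 were named after their values were seen.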

Additional observations from a re-analysis of the deposited data

How the results depend on the processing

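The counts of hosts that passed depended on the setting as follows. Against 0 µM at 0.01 µM the count of 0 became 1 (SNHG16) with no filter, with at least 10 counts in every library and with DESeq2, and at 1 µM it became 1 (SNHG6) with DESeq2. Over all genes these fits called 747 of 34619, 1301 of 14388 and 2119 of 17468 at 0.01 µM, and 1379 of 17468 at 1 µM. At 10 µM the count of 4 became 0 against 0.01, 0.1 or 1 µM and with the length covariate, and 0 genes passed in these fits. SNHG8 also lost its call with unscaled library totals (edgeR adjusted p = 0.0604) and with the mitochondrial share as a covariate (0.0746). These 2 fits called 3281 and 3444 of 17468 genes. In the 6 libraries alone SNHG12 passed as lower too (edgeR adjusted p = 0.0289), beside 5325 of 16298 genes. At 100 µM the count of 1 became 0 against 0.01, 0.1, 1 or 10 µM, with the length covariate, DESeq2's size factors in edgeR (RLE), unscaled library totals or the mitochondrial share as a covariate, 5 in the 6 libraries alone and 2 with DESeq2. The main fit called 1051 of 17468 genes, the 6 libraries alone 4015 of 16230 and DESeq2 2012 of 17468. The length covariate, RLE, library totals and the mitochondrial share called 6, 1065, 680 and 1431 of 17468. At 1000 µM the count of 2 became 1 against 0.01, 1 or 10 µM (GAS5, higher), 0 against 0.1 µM, 0 with the length covariate, and 3 with library totals or the 6 libraries alone (SNHG16 added, lower) or the mitochondrial covariate (GAS5 added, higher). Library totals called 6855 of 17468 genes, the 6 libraries alone 7094 of 16249, the mitochondrial covariate 7662 of 17468 and the length covariate 313 of 17468. At 1000 µM against 100 µM the count of 0 became 2 with the length covariate, beside 805 of 17468 genes. Among the 7 groups the count of 2 became 1 with RLE or library totals, 0 without the 1000 µM libraries or the untreated ones, and 4 with DESeq2. These fits called 4896 and 4332 of 17468, 159 of 17329, 2211 of 17308 and 6581 of 17468 genes. With the length covariate SNHG16 (edgeR adjusted p = 0.00862) and SNHG6 (0.0302) passed and SNHG5 did not (0.531), beside 1469 genes. With the mitochondrial covariate GAS5 passed (edgeR adjusted p = 0.0324) and SNHG5 did not (0.0673), beside 5186 genes. For the slope the count of 2 became 1 with no filter, 1 on the linear dose (GAS5, higher), and 0 in treated libraries alone or with the length covariate. These fits called 4279 of 34619, 5469 of 17468, 1984 of 17308 and 133 of 17468 genes. Without the 1000 µM libraries SNHG8 and ZFAS1 passed with a fall (edgeR adjusted p = 0.0412 and 0.0393) and SNHG12 did not (0.183). That fit called 1051 of 17329 genes. The cause of these differences was not tested.

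Among hosts that passed, the sign changed for SNHG16 at 10 µM with the length covariate (0.0108), and for SNHG5 against 10 µM, at 100 µM (0.16) and at 1000 µM (0.27). With single libraries left out, the lowest and highest counts were 0 and 0 for 0.01 and 1 µM, 0 and 1 for 0.1 µM (1 without 0.1 µM replicate 3), 1 and 4 for 10 µM (1 without 0 µM replicate 2), 0 and 1 for 100 µM, 0 and 2 for 1000 µM, 0 and 1 for 1000 against 100 µM, 0 and 3 among the 7 groups, and 1 and 4 for the slope (4 without 1000 µM replicate 2). The calls over all genes moved as well. At 10 µM 1260 of 17824, 2056 of 17795 and 3419 of 17823 genes passed without 0 µM replicates 1, 2 and 3, against 3839 in the main fit. At 100 µM these fits called 47, 26 and 1133, against 1051. At 1000 µM they called 5592, 5710 and 6610, against 7204. Without 0.1 µM replicate 3, 865 of 17821 genes passed at 0.1 µM.

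Same-numbered libraries did not deviate together (63 pairs, r of -0.44 to 0.25, 11 above 0.1), and 3 of 21 libraries matched best with their own number. With the replicate number as a block the counts were 3 at 10 µM (SNHG8 lost), 0 at 100 µM, 2 at 1000 µM and 1 among the 7 groups. Beside them 3298, 445, 6863 and 4034 of the 17468 genes passed. The reference of 10 µM and the length covariate were chosen after the data were seen.

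At these depths SNHG15 had too few counts for any comparison.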
